A study of Homo sapiens with 2 samples.

Results

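The 10 genes described here encode the enzymes and the carrier that build, lengthen and desaturate fatty acids: ACLY, ACACA, FASN, SCD, ACSS2, ELOVL5, ELOVL6, FADS1, FADS2 and SLC25A1. They were taken by gene symbol from the 36601 genes listed in the count matrices, and all 10 were among the 6867 genes that reached 20 CPM (UMI counts per 1000000 over the cells of a library) in at least 1 of the libraries. MDA-MB-231 is a human triple-negative breast cancer cell line, and the comparison asks how cells that grow on homocysteine, the precursor of methionine, differ from their parental culture. Revertant cells (D21) had been kept for 21 days in RPMI-1640 medium without methionine but with 100 µM homocysteine and 1.5 µM vitamin B12 (cyanocobalamin), the cofactor of methionine synthase. Parental cells (D0) were kept in RPMI-1640 medium with 100 µM methionine. By the sample labels, both cultures were in custom RPMI-1640 with dialyzed, heat-inactivated fetal bovine serum and penicillin with streptomycin. Each condition was 1 library of 1 cell line, so the cells of a library are not replicates, no test between conditions was possible, and every interval below covers counting error only.

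In the cytosol, fatty acids are made from acetyl-CoA. Citrate leaves the mitochondria through SLC25A1 and is split to acetyl-CoA by ACLY, while ACSS2 makes acetyl-CoA from acetate. ACACA turns acetyl-CoA into malonyl-CoA, the donor of carbon units, and FASN joins these units to palmitate. ELOVL enzymes lengthen the chain in the endoplasmic reticulum. SCD places the first double bond in saturated chains, and FADS1 and FADS2 place further double bonds in polyunsaturated chains. Many of these genes are known targets of the SREBP transcription factors, which also drive sterol synthesis and respond to the sterol and unsaturated fatty acid supply of the cell.

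The D21 library held 12487 cells and the D0 library 7492 cells, with a median of 12022 UMIs per cell (unique molecular identifiers, each marking 1 captured RNA molecule) at D21 and 18908 at D0. Total UMIs were nearly equal, at 199817213 at D21 and 199799447 at D0, and 91.5% of them lay in cells at D21 and 91.6% at D0. The median share of mitochondrial UMIs was 6.61% at D21 and 5.75% at D0, and 21 cell barcodes occurred in both libraries. Markers of the line (VIM, CD44, CAV1, AXL and S100A4) summed to 5055 CPM at D21 and 6565 CPM at D0, all 5 being measured. The receptor genes ESR1, PGR and ERBB2 and the epithelial adhesion gene EPCAM summed to 20.7 CPM at D21 and 21.4 CPM at D0. None of the 4 reached 20 CPM. Of 10 markers of blood, endothelial, stromal, fat and liver cells, 1 reached 20 CPM (CD68), and they summed to 33.7 CPM at D21 and 42.3 CPM at D0.

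Upstream sequences of the genes are shown for those at the ends of the response described below (SCD and FADS2, with low D21/D0 ratios, and ELOVL6, with a ratio near 1) and for ACLY, the first enzyme of the route. RefSeq start windows (GRCh38.p14) were found for 9 of the 10 genes, in 14 windows; FASN was not among them. The stretches printed lie upstream of a RefSeq start and outside every GENCODE exon. The SCD stretch ends just before the GENCODE span of the gene, while those of FADS2, ELOVL6 and ACLY lie inside the spans of their genes, which begin further upstream. All run 5′ to 3′ on the strand of the gene. They are chr10:100346983-100347123 on the plus strand for SCD, chr11:61816154-61816255 on the plus strand for FADS2, chr4:110198677-110198841 on the minus strand for ELOVL6 and chr17:41919023-41919272 on the minus strand for ACLY. Capitals mark CCAAT and GGGCGG, read on either strand (ATTGG and CCGCCC on the other).
SCD: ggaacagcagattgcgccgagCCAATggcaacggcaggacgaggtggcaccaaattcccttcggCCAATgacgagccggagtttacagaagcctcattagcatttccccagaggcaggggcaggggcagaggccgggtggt
FADS2: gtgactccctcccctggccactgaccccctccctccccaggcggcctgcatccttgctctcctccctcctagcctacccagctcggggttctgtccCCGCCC
ELOVL6: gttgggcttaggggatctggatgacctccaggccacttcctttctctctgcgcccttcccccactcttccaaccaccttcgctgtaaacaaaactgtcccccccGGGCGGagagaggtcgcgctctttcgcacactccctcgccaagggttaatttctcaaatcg
ACLY: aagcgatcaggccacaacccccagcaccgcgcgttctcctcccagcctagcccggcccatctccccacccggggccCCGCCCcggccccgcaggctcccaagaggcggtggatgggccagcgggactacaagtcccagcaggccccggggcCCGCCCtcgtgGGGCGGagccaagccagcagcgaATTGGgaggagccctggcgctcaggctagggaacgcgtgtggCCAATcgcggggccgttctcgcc

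The SCD stretch held 2 copies of CCAAT, the letters bound by the factor NF-Y, and the ACLY stretch held 2 copies of CCAAT and 3 of GGGCGG, the letters bound by SP factors. The FADS2 and ELOVL6 stretches held 1 GGGCGG each and no CCAAT. Over whole windows of 300 bases, CCAAT was found in 7 of the 9 genes (SLC25A1, ACLY, ACSS2, ACACA, ELOVL5, SCD and FADS2), against 44.1% of the 5621 tested genes with a window, and in 9 of the 14 windows, against 34.6% of all 35116 windows. GGGCGG was found in 8 of the 9 genes, near the 78.97% of tested genes, and in 11 of the 14 windows, against 44.95% of all windows. CACGTG, an E-box, was found in ELOVL5 only, which is 1 of the 9 genes, against 13.6% of tested genes and 7.26% of all windows. TCACNCCAC, a sterol response element spelled with 1 open position, was in none of the 14 windows, in 1.19% of tested genes and in 1.13% of all windows, which says only that these letters are not in these windows. No motif searched lies within another, and GGGCGG copies may overlap each other.

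All 10 genes had a D21/D0 ratio of CPM below 1, where 50.6% of all genes tested lay below 1. Of the 10 genes, 3 had a ratio of at most 0.5 (FADS2, SCD and FASN), against 0.728% of all genes, and 4 were at least 1.5-fold lower (the same 3 and FADS1), against 3.47% of all genes. The median log2 ratio of the 10 genes was -0.50, while that of all genes tested was -0.003 and the 5th percentile of all genes was -0.52. Their UMIs summed to 116412 at D21 and 172028 at D0, which is 637 CPM at D21 and 940 CPM at D0, a ratio of 0.678 (95% interval 0.673 to 0.683). By role, the summed ratio was 0.490 for desaturation, 0.687 for chain building, 0.784 for the supply of acetyl-CoA and 0.956 for elongation.

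**Figure D1:**
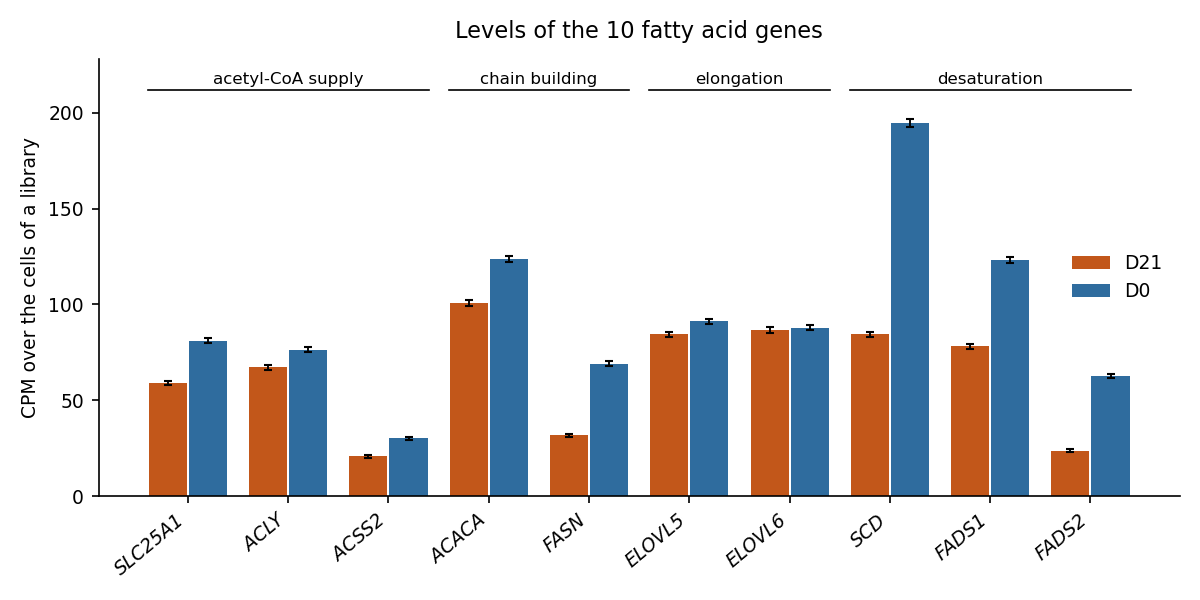
Level of each gene in CPM over all cells of the D21 library (orange) and the D0 library (blue), with exact Poisson 95% intervals as error bars, grouped by role. SCD was highest at D0 with 195 CPM and stood at 84.5 CPM at D21, while the ELOVL6 bars (86.6 CPM at D21, 87.9 CPM at D0) nearly match.

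The desaturases differed most between the libraries. SCD (ENSG00000099194, chromosome 10 from 100347124 to 100364834 of GRCh38), which makes oleate and palmitoleate, had 15443 UMIs and 84.5 CPM at D21, against 35637 UMIs and 195 CPM at D0. Its ratio was 0.434 (0.426 to 0.442), the 16th lowest of the 6867 genes. FADS2 (ENSG00000134824, chromosome 11 from 61792980 to 61867354), the delta-6 desaturase at the entry of the polyunsaturated route, had 23.7 CPM at D21 and 62.6 CPM at D0, a ratio of 0.379 (0.366 to 0.392) and the 6th lowest of all genes. FADS1 (ENSG00000149485, chromosome 11 from 61799625 to 61829318), the delta-5 desaturase acting later in that route, had 78.1 CPM at D21 and 123 CPM at D0, a ratio of 0.635 (0.622 to 0.648). FADS1 thus stood nearer to 1 than its neighbour FADS2, although both genes cover the same stretch of chromosome 11 on opposite strands. No strand setting of the counting was stated in those sources, so the split of UMIs between this pair carries that uncertainty.

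In chain building, FASN (ENSG00000169710, chromosome 17 from 82078333 to 82098332), the synthase itself, had 31.7 CPM at D21 and 69.1 CPM at D0. Its ratio was 0.458 (0.444 to 0.473), the 28th lowest. ACACA (ENSG00000278540, chromosome 17 from 37084988 to 37406818), the carboxylase that commits acetyl-CoA to fatty acids, had 100.6 CPM at D21 and 123.6 CPM at D0, a ratio of 0.814 (0.799 to 0.830). The carboxylase and the synthase therefore differed from each other by more than their counting intervals.

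In the supply of acetyl-CoA the ratios lay between 0.686 and 0.880. ACSS2 (ENSG00000131069, chromosome 20 from 34872146 to 34927962), acetyl-CoA synthetase, had 20.7 CPM at D21 and 30.2 CPM at D0, a ratio of 0.686 (0.658 to 0.715). SLC25A1 (ENSG00000100075, chromosome 22 from 19175575 to 19178830), the mitochondrial citrate carrier, had 59.2 CPM at D21 and 81.2 CPM at D0, a ratio of 0.729 (0.711 to 0.747). ACLY (ENSG00000131473, chromosome 17 from 41866908 to 41930542), ATP citrate lyase, had 67.2 CPM at D21 and 76.4 CPM at D0, a ratio of 0.880 (0.859 to 0.902), so that the enzyme using citrate lay closer to 1 than the carrier exporting it.

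The elongases differed least. ELOVL5 (ENSG00000012660, chromosome 6 from 53267398 to 53349179), which lengthens polyunsaturated chains, had 84.5 CPM at D21 and 91.1 CPM at D0, a ratio of 0.927 (0.907 to 0.948). ELOVL6 (ENSG00000170522, chromosome 4 from 110045846 to 110199199), which lengthens palmitate to stearate, had 86.6 CPM at D21 and 87.9 CPM at D0. The ELOVL6 ratio of 0.986 had an interval of 0.964 to 1.01 that included 1, and it was above 1 (1.01) when mitochondrial and ribosomal protein genes were left out of the CPM total.

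**Figure D2:**
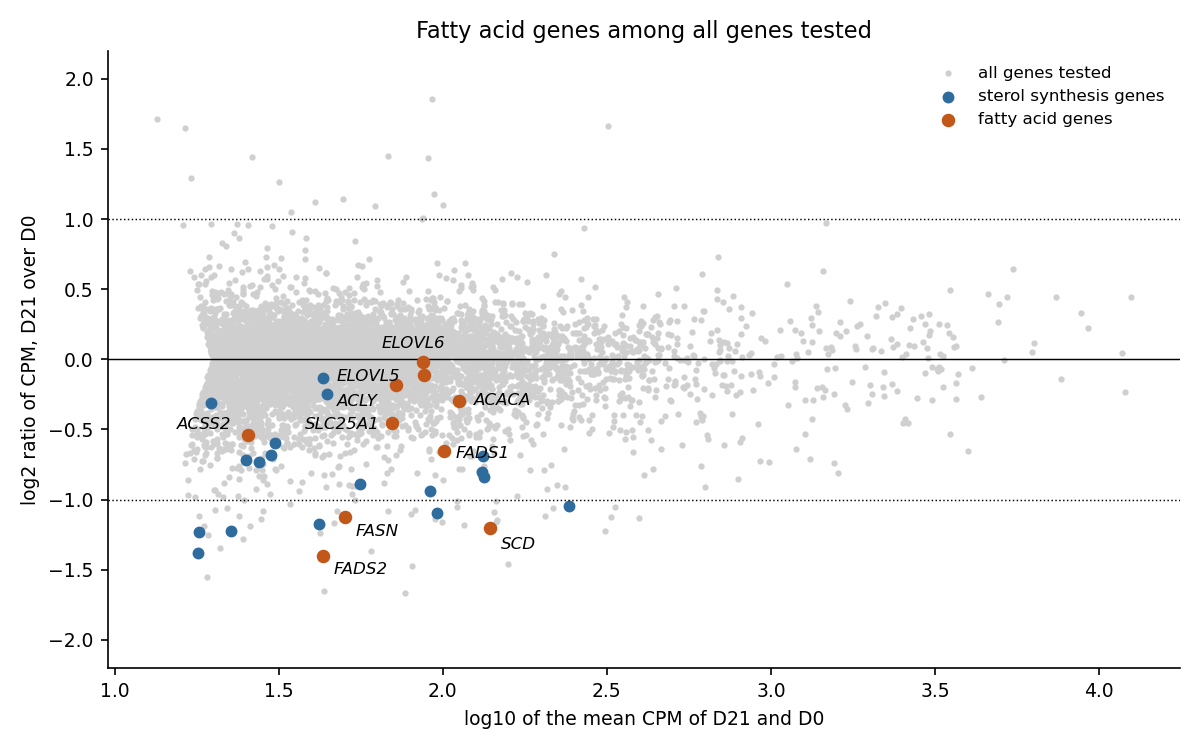
Log2 ratio of CPM, D21 over D0, against the log10 of the mean CPM for all 6867 genes tested (grey), with the fatty acid genes in orange and the sterol synthesis genes in blue; dotted lines mark a 2-fold difference. FADS2, SCD and FASN lie below the lower dotted line and ELOVL6 lies next to 0.

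The order of the genes by level was not the same in the libraries. In 3' counting each molecule is counted once whatever its length. How well each gene was captured was not checked, so the order given is that of measured CPM only. At D21 ACACA was highest with 100.6 CPM, followed by ELOVL6, SCD and ELOVL5 at 86.6, 84.5 and 84.5 CPM, whose neighbouring Poisson intervals overlapped. At D0 SCD was highest with 195 CPM, followed by ACACA and FADS1 at 124 and 123 CPM, whose intervals overlapped. ACSS2 was lowest in both libraries. SCD held 13.3% of the UMIs of the 10 genes at D21 and 20.7% at D0, and without it the other 9 genes summed to 552 CPM at D21 and 745 CPM at D0, a ratio of 0.741 (0.735 to 0.747).

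The difference was also seen in the share of cells with a UMI, once each cell had been thinned at random to 5000 UMIs so that depth was equal. SCD was found in 28.96% of cells at D21 (exact binomial 95% interval 28.2 to 29.8) and in 56.8% at D0 (55.6 to 57.9). FADS2 was found in 10.99% of cells at D21 and 27.1% at D0, and FASN in 13.3% at D21 and 26.6% at D0. ELOVL6 was found in 31.97% of cells in both libraries. The median over the 10 genes was 27.9% at D21 and 31.5% at D0, while as deposited, with deeper D0 cells, it was 53.1% at D21 and 72.6% at D0. A culture of 1 line holds no cell type that should lack these genes, so the free RNA was read from barcodes of 1 to 100 UMIs. There the 10 genes summed to 560 CPM at D21 and 826 CPM at D0, a ratio of 0.678 (0.650 to 0.708), and SCD had 84.6 CPM at D21 and 199 CPM at D0. The free RNA thus differed between the libraries as the cells did, and its part in the shares was not tested.

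Counted per cell at the same depth, the 10 genes together gave a mean of 3.09 UMIs at D21 and 4.55 at D0, with a median of 3 UMIs at D21 and 4 at D0. Cells with no UMI of any of the 10 genes made up 10.0% (9.50 to 10.6) at D21 and 3.24% (2.85 to 3.67) at D0. Cells with 5 or more of the 10 genes made up 10.1% at D21 and 24.1% at D0. A sum above 4 UMIs, the D0 median, was found in 22.6% of D21 cells and 44.7% of D0 cells. Only the highest cell went the other way, with 30 UMIs at D21 and 20 at D0. SCD was the most uneven gene between cells, with a variance of 1.84 times its mean at D21 and 1.39 times at D0, while the other 9 genes lay between 1.04 and 1.22 in the libraries. As deposited, the highest cell held 50 UMIs of SCD at D21 and 47 at D0.

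Because D0 cells held more UMIs, the genes were also compared within bins of UMIs per cell. D21 cells below the D0 minimum of 9009 UMIs were left out, and the bins held 36.7%, 23.5% and 11.3% of D21 cells. Among cells of 9009 to 15000 UMIs, the 10 genes summed to 623 CPM at D21 and 843 CPM at D0, a ratio of 0.740, and among cells of 15000 to 25000 UMIs to 646 CPM at D21 and 924 CPM at D0, a ratio of 0.699. Above 25000 UMIs they summed to 682 CPM at D21 and 975 CPM at D0, a ratio of 0.699. This last bin has no upper limit, and its median UMIs per cell still differed, with 30757 at D21 and 36334 at D0. The count of genes at a ratio of at most 0.5 was 3, 3 and 2 of 10 in these bins (all genes 1.59%, 0.999% and 0.647%), FASN standing at 0.504 in the last. The count below 1 was 8, 8 and 10 of 10 (all genes 42.9%, 46% and 46.2%). SCD lay between 0.3996 and 0.446 and FADS2 between 0.364 and 0.388 in the 3 bins. The elongases crossed 1, with ELOVL5 at 1.08, 1.01 and 0.938 and ELOVL6 at 1.16, 1.07 and 0.974 from the bin of fewest to that of most UMIs.

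MDA-MB-231 cells of both libraries fall into a state marked by CEMIP, SAA1, SAA2, NNMT and FLG and a state marked by AGR2, SPANXB1, SOX4, CST1 and AFF3, as known from earlier results of these data. By which marker set had more UMIs, CEMIP/SAA cells made up 53.8% of D21 cells and 28.0% of D0 cells, and AGR2/SPANXB1 cells made up 42.2% of D21 cells and 69.2% of D0 cells. Ties made up 4.02% at D21 and 2.75% at D0 and were left out, and 14.97% of D21 cells and 10.6% of D0 cells lay within 2 UMIs of the cut. The markers themselves differed between the libraries. The CEMIP/SAA markers summed to 896 CPM at D21 and 354 CPM at D0, and the AGR2/SPANXB1 markers to 684 CPM at D21 and 1001 CPM at D0. Whether a state holds like cells in both libraries was not tested, which limits the shares and the ratios within states. In CEMIP/SAA cells the 10 genes summed to 749 CPM at D21 and 1110 CPM at D0, a ratio of 0.675 (0.668 to 0.682). In AGR2/SPANXB1 cells they summed to 468 CPM at D21 and 852 CPM at D0, a ratio of 0.549 (0.543 to 0.556), so that the intervals of the states did not overlap. The difference between the states was not tested, with 1 library per condition.

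All 10 genes were below 1 in both states (all genes 54.9% in CEMIP/SAA cells and 52.5% in AGR2/SPANXB1 cells). A ratio of at most 0.5 was reached by 3 of 10 genes in CEMIP/SAA cells (all genes 0.663%) and by 4 of 10 in AGR2/SPANXB1 cells (all genes 0.753%). SCD had 48.3 CPM at D21 and 172 CPM at D0 in AGR2/SPANXB1 cells, a ratio of 0.281 (0.271 to 0.292), and 109 CPM at D21 and 240 CPM at D0 in CEMIP/SAA cells, a ratio of 0.452 (0.441 to 0.464). In AGR2/SPANXB1 cells FADS2 had a ratio of 0.253, FASN of 0.320 and FADS1 of 0.472. In CEMIP/SAA cells FADS2 had a ratio of 0.418, FASN of 0.472 and FADS1 of 0.665. ACSS2 went the other way, with 0.679 (0.636 to 0.725) in AGR2/SPANXB1 cells and 0.602 (0.568 to 0.638) in CEMIP/SAA cells. For ACLY (0.822 in AGR2/SPANXB1 cells, 0.842 in CEMIP/SAA cells) and ELOVL6 (0.899 in AGR2/SPANXB1 cells, 0.883 in CEMIP/SAA cells) the intervals of the states overlapped.

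**Figure D3:**
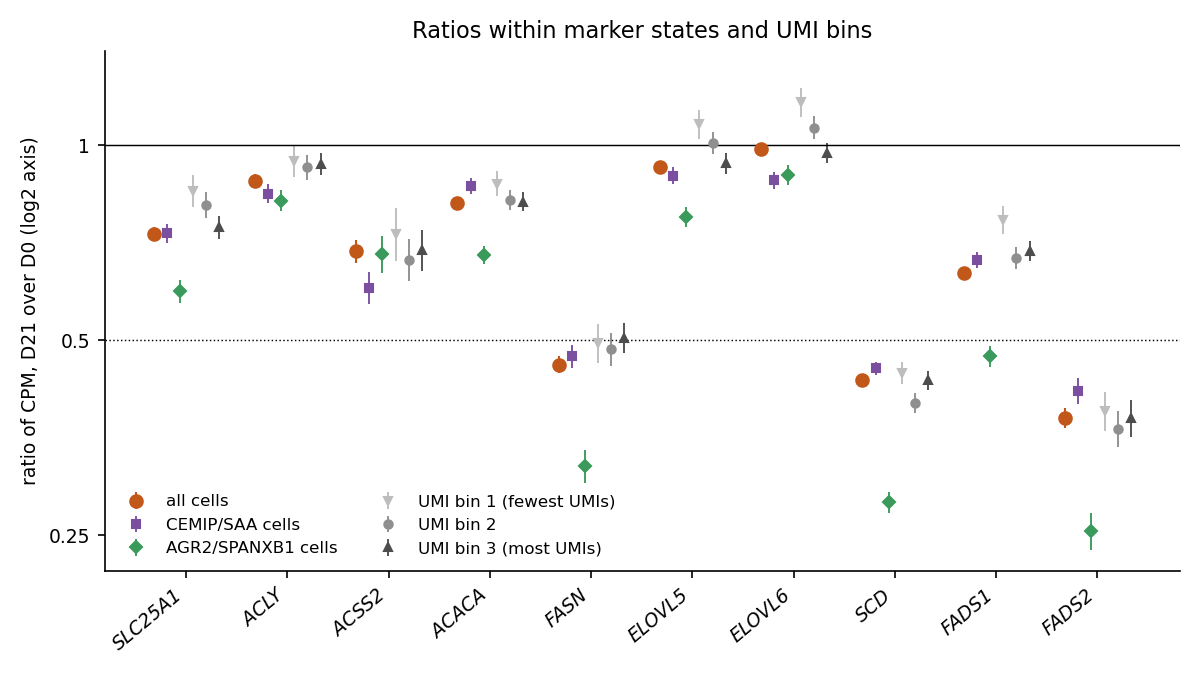
Ratio of CPM, D21 over D0, on a log2 axis for each gene in all cells, in cells of each marker state and in cells of each UMI bin, with exact 95% intervals. The green diamonds (AGR2/SPANXB1 cells) are the lowest points for every gene except ACSS2 and ELOVL6. They lie at 0.320 for FASN, 0.281 for SCD, 0.472 for FADS1 and 0.253 for FADS2. Only the elongases reach above 1.

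Within each library, the 10 genes were higher in CEMIP/SAA cells than in AGR2/SPANXB1 cells. The share of all genes higher in CEMIP/SAA cells was not computed, so this is not shown to be particular to the 10 genes. The summed ratio of the states was 1.60 (1.58 to 1.62) at D21 and 1.30 (1.29 to 1.32) at D0. At D21 the gene with the widest gap was SCD, with 109 CPM in CEMIP/SAA cells and 48.3 CPM in AGR2/SPANXB1 cells, a ratio of 2.25, followed by FASN at 2.05 and FADS2 at 2.01. At D0 the ratio of the states was 1.398 for SCD, 1.386 for FASN and 1.216 for FADS2. ELOVL6 differed between the states by 1.46 at D21 and 1.48 at D0. CEMIP/SAA cells also held more UMIs, with medians of 13410 per cell against 10707 in AGR2/SPANXB1 cells at D21 and 23301 against 17381 at D0, and the part of depth in the gap between states was not tested. Since the state with the higher levels was also the larger at D21, giving both states equal weight put the median log2 ratio of the 10 genes at -0.62.

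Across single cells the genes were mostly positively correlated with each other. Over the 45 pairs, the correlation of Pearson residuals (counts set against what depth alone gives) had a median of 0.113 at D21, ranging from 0.029 to 0.227, and of 0.146 at D0, ranging from -0.056 to 0.281. Over all pairs of tested genes the median was 0.006 at D21 and 0.007 at D0 and the 95th percentile 0.084 at D21 and 0.123 at D0, which 32 of the 45 pairs exceeded at D21 and 28 at D0. These values describe 12487 cells at D21 and 7492 cells at D0, which share a library, and they depend on depth: with cells thinned to 5000 UMIs the medians were 0.0473 at D21 and 0.0445 at D0. SCD was the centre of the set, with a median correlation to the other 9 genes of 0.173 at D21 and 0.227 at D0. Its closest partners were FADS2, FADS1 and FASN at D21 (0.227, 0.226 and 0.221) and FASN, FADS2 and ACSS2 at D0 (0.281, 0.268 and 0.262). SLC25A1 was the least tied, with medians of 0.044 at D21 and 0.060 at D0. Its correlation with ACACA was 0.036 at D21 and -0.056 at D0. For SLC25A1, ELOVL5 and ELOVL6 the median lay below the gene's own 95th percentile over all tested genes in both libraries. For ELOVL5 it was 0.103 against 0.124 at D21 and 0.108 against 0.164 at D0. ACACA was below at D0 only (0.157 against 0.199), and the remaining members were above in both libraries. Pairs of a member with a sterol synthesis gene had a median of 0.092 at D21 and 0.112 at D0. The co-variation is thus not shown to be particular to the members.

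**Figure D4:**
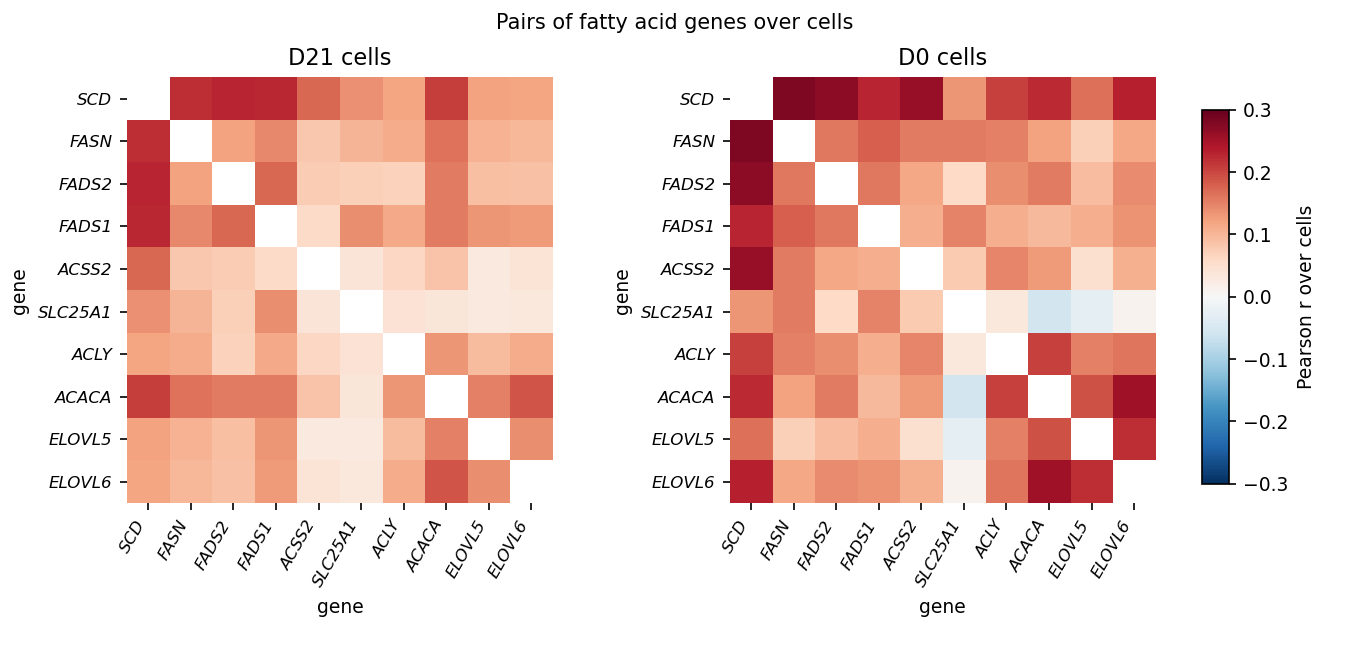
Pearson correlation over cells for each pair of genes, from residuals that take depth into account, in D21 cells (left) and D0 cells (right); red is positive and blue negative. The SCD row is the darkest in both, and SLC25A1 is the palest, reaching -0.056 with ACACA at D0.

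The genes most like each member over cells, taken as the 3 highest correlations among the 6867 genes, differed between the members. For ACSS2, FASN and FADS2 they were other fatty acid or sterol genes in both libraries: HMGCS1, SCD and MSMO1 for ACSS2 in both, HMGCS1, SCD and MSMO1 for FASN at D21 and SCD, FDPS and DHCR7 at D0, and SCD, IDI1, CYP51A1 and MSMO1 for FADS2. SCD itself was nearest to HMGCS1 (0.344), DSP (0.335) and SERPINB1 (0.331) at D21 and its nearest genes at D0 included FN1 (0.376) and HMGCS1 (0.352). The nearest genes of FADS1 included SCD and IDI1 at D21, and FADS1 was nearest to SCD, ATAD2 and KPNB1 at D0.

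For ACACA and the elongases the nearest genes had long spans. ACACA was nearest to PVT1 (0.296), EXT1 (0.282) and PTPRM (0.254) at D21 and to PVT1 (0.355), PTPRG (0.335) and TRIO (0.334) at D0, all of which span 307 kb or more in GENCODE. ELOVL6 was nearest to EXT1, PVT1 and PTPRG at D21 and to EXT1, PTPRM and PVT1 at D0, and ELOVL5 to ZFAND3, EXT1 and PKP4 at D21 and to ZFAND3, TEAD1 and EXT1 at D0, which span 226 kb or more. For ACLY they were EXT1, PVT1 and KPNB1 at D21 and SCD, ACACA and EXT1 at D0. SLC25A1 was nearest to DBI, GSTP1 and FADS1 at D21 and to FDPS, DBI and GSTP1 at D0, which span 29.7 kb or less. ACACA spans 322 kb, ELOVL6 153 kb and ELOVL5 81.8 kb, while SCD spans 17.7 kb, FASN 20 kb and SLC25A1 3.26 kb.

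Gene span was looked at only after these neighbours had been seen, and the grouping was not tested. Among the other genes tested, the median log2 ratio was 0.06 for 1674 genes of 100 kb or more, 0.003 for 3029 genes of 20 to 100 kb and -0.07 for 2149 genes under 20 kb. ACACA and ELOVL6, the members of 100 kb or more, had ratios of 0.814 and 0.986. The 6 members of 20 to 100 kb lay between 0.379 and 0.927, and SCD and SLC25A1, the members under 20 kb, had 0.434 and 0.729. The part of gene span in the ratios of the 10 genes was not tested.

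Cells were next ranked by their thinned UMIs of 19 sterol synthesis genes, none of which is a member. In the 20% of cells with the most sterol UMIs, the 10 genes summed to 879 CPM at D21, against 502 CPM in the 20% with the fewest, a ratio of 1.75 (1.72 to 1.78). At D0 the sums were 1173 CPM in the sterol-high and 749 CPM in the sterol-low cells, a ratio of 1.57 (1.54 to 1.59). A ratio of at least 1.5 was found for 7 of the 10 genes at D21, against 1.47% of all other genes, and for 6 of the 10 at D0, against 0.438%. Median UMIs per cell were 12217 in the high and 11124 in the low cells at D21, and 18264 in the high and 17723 in the low cells at D0.

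SCD had 159 CPM in the sterol-high and 47.9 CPM in the sterol-low cells of D21, a ratio of 3.32 (3.14 to 3.51), and 268 CPM in the sterol-high and 144 CPM in the sterol-low cells of D0, a ratio of 1.86 (1.80 to 1.93). Even the sterol-high cells of D21 held little more SCD than the sterol-low cells of D0. FASN had high over low ratios of 2.31 at D21 and 2.14 at D0, FADS2 of 2.28 at D21 and 1.65 at D0, and FADS1 of 1.94 at D21 and 1.60 at D0. For ACSS2 the larger of the ratios was that of D0 (1.69 at D21, 2.28 at D0), and for ACACA that of D21 (1.57 at D21, 1.27 at D0). SLC25A1 had 1.64 at D21 and 1.55 at D0. ACLY (1.326 at D21, 1.404 at D0), ELOVL5 (1.37 at D21, 1.24 at D0) and ELOVL6 (1.34 at D21, 1.30 at D0) were near the low end, with intervals above 1 in both libraries.

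Ranked by 10 G2/M genes, which mark cells before and in mitosis, the members spread to both sides of 1. A ratio of at least 1.5 was found for 1 of the 10 genes in each library, ELOVL5 at 1.75 (D21) and 1.65 (D0), against 11.7% of all other genes at D21 and 10.2% at D0, so the share of members was close to that of all genes. ACSS2 was lower in G2/M-high cells, at 0.673 (D21) and 0.552 (D0), and so was SCD, at 0.595 (D21) and 0.785 (D0). Ranked by 10 S phase genes, FADS1 and ELOVL5 reached 1.61 and 1.60 at D21 and FADS1 1.55 at D0, which is 2 of the 10 genes at D21 and 1 at D0, against 10.5% of all other genes at D21 and 10.7% at D0. ACSS2 (0.691 at D21, 0.654 at D0) and SCD (0.747 at D21, 0.789 at D0) were again below 1. Cells high for either list also held more UMIs, with medians of 14407 in the G2/M-high and 9187 in the G2/M-low cells of D21.

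**Figure D5:**
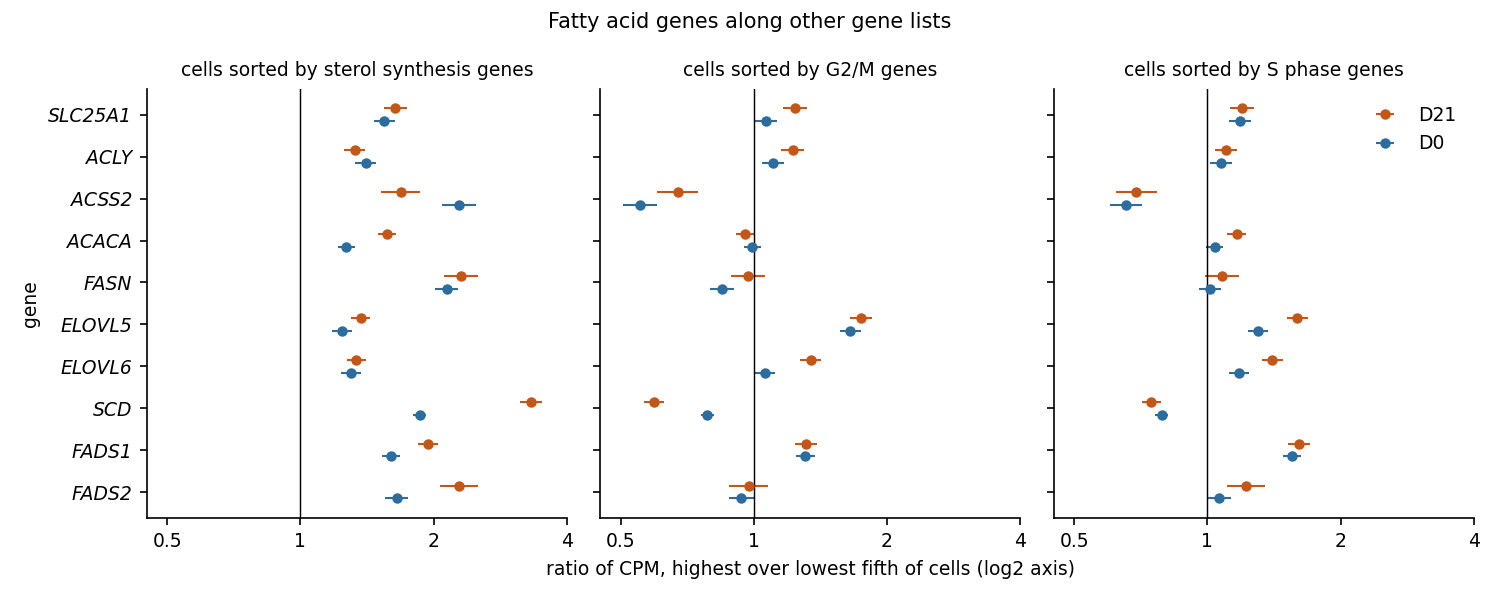
Ratio of CPM between the 20% of cells with the most and the 20% with the fewest UMIs of a gene list (log2 axis, exact 95% intervals), for D21 (orange) and D0 (blue). All 10 genes lie above 1 for sterol synthesis genes, as do 58.5% of the genes tested at D21 and 46.8% at D0. SCD lies furthest for sterol synthesis genes, at 3.32 in D21, while SCD and ACSS2 lie below 1 for G2/M and S phase genes.

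Ranked by the other 9 members, each gene was higher in the high than in the low cells, as were 68.2% to 70.05% of the other genes at D21 and 63.8% to 66.5% at D0. At D21 the ratios lay between 1.48 for SLC25A1 and 2.76 for FADS2 and SCD, and at D0 between 1.21 for SLC25A1 and 2.02 for ACSS2. FADS2 had 37.4 CPM in the high and 13.5 CPM in the low cells of D21, and 79.9 CPM in the high and 46.4 CPM in the low cells of D0.

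Of 75 further genes around the route, 44 reached 20 CPM, of which 38 had a ratio below 1 and 1 a ratio of at most 0.5, with none at 2 or above and a median log2 ratio of -0.32. Over all genes tested 50.6% were below 1 and 0.728% at most 0.5, which is also the background of the list counts that follow. The gene at 0.5 or less was INSIG1, which retains the SREBP escort protein in the endoplasmic reticulum, with 36.8 CPM at D21 and 117 CPM at D0, a ratio of 0.315 (0.306 to 0.323). Among 11 measured regulators, 10 were below 1. SREBF1, which encodes the SREBP most tied to fatty acid genes, had 20.5 CPM at D21 and 36.5 CPM at D0, a ratio of 0.563 (0.541 to 0.586). SREBF2, the SREBP most tied to sterol genes, had a ratio of 0.596, TRIB3 one of 0.663, and PRKAA1, a catalytic subunit of AMP-activated kinase, was the exception at 1.11.

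None of the enzymes that work beside the members had a ratio of at most 0.5. The 11 other genes of the elongation cycle summed to a ratio of 0.772, lower than the 0.956 of ELOVL5 and ELOVL6. The elongation cycle needs a reductase, a dehydratase and a further reductase after each ELOVL step. Of 5 measured genes 4 were below 1, with HSD17B12 at 0.611, TECR at 0.630, ELOVL1 at 0.796, HACD1 at 0.959 and HACD3 at 1.04. Of 6 measured desaturases and electron donors, 5 were below 1, with the donor reductase CYB5R3 at 0.693, the ceramide desaturase DEGS1 at 0.781, SCD5 at 0.892 and FADS3 at 1.09. FADS3 thus lay on the other side of 1 from its neighbours FADS1 and FADS2. For NADPH, the reducing agent of the route, 4 of 5 genes were below 1, among them IDH1 at 0.660 and PGD at 0.835, and PGLS stood at 1.06.

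Genes that activate or use fatty acids were also mostly below 1. All 6 measured acyl-CoA synthetases and binding proteins were lower at D21, with DBI, which binds acyl-CoA, at 290 CPM at D21 and 430 CPM at D0 (0.675), ACSL4 at 0.689, SLC27A4 at 0.721 and ACSL3 at 0.747. In glycerolipid assembly 6 of 7 were below 1, with the phosphatidate phosphatase LPIN1 at 0.545, GPAT3 at 0.623, LPIN2 at 0.828 and AGPAT2 at 0.863, the exception being AGPAT1 at 1.00. Of the remaining acetyl-CoA enzymes, ACAT2 had 0.658 and CS 0.933, and of mitochondrial fatty acid synthesis MECR had 0.851 and NDUFAB1, the acyl carrier protein, 1.14.

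For scale, all 18 measured sterol synthesis genes were below 1, with 6 at a ratio of at most 0.5 (HSD17B7, MVD, NSDHL, DHCR7, MSMO1 and FDPS) and a median log2 ratio of -0.82. They summed to 870 CPM at D21 and 1569 CPM at D0, a ratio of 0.555. In mitochondrial fatty acid oxidation, the opposite route, 7 of 9 measured genes were below 1 with a median log2 ratio of -0.12, and ACADVL, which acts on very long chains, had 33.7 CPM at D21 and 87.0 CPM at D0, a ratio of 0.387 (0.376 to 0.399). The other oxidation genes lay between 0.742 (HADH) and 1.04 (HADHA), with DECR1 at 0.785, ETFA at 0.865 and ECI1 at 1.03.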

How the data were processed

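Poly(A) RNA of D21 and D0 cells was captured on a 10x Chromium controller (3' chemistry, kit v3.1), 1 library each. The deposited matrices hold raw UMI counts of genes by barcodes, which the authors produced in Cell Ranger (4 in the file headers) on GRCh38 with no filter on barcodes. No annotation release for the counting was stated in the sources used here. Barcodes were taken as cells at 10% of the 99th percentile of the 5000 largest barcodes (5422 UMIs at D21, 9009 at D0), with at least 500 genes and at most 20% mitochondrial UMIs, which removed 38 barcodes at D21 and 11 at D0. No doublet caller was run; leaving out the 6% of cells with the most UMIs was an alternative.

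CPM is a gene's UMIs over all cells per 1000000 UMIs of those cells. Ratios are D21 over D0 with exact conditional 95% intervals, Poisson intervals for CPM and Clopper-Pearson intervals for shares. With 1 library per condition no p-value was computed, and counts of genes are set beside the share of all genes of at least 20 CPM in either library. Cells were thinned to 5000 UMIs without replacement, residuals used theta 100, and ratios, intervals and correlations were tested on simulated data with known answers. The simulated gene totals were Poisson counts, as the intervals assume, so this cannot show how well the intervals fit the real counts.

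Genes named are the 10 members; of each other list up to 4 genes of at least 20 CPM furthest from a ratio of 1 and every gene past 2-fold; and for each member the 3 genes of highest correlation. Some genes that this rule takes are not reported here. HACD3, PGLS, AGPAT1, PRKAA1, HADHA, ECI1 and CD68 were named after their values were seen. The members, lists and state markers were chosen with earlier results of these data known. Gene positions are from GENCODE v29 and sequences from RefSeq. Python 3.11.15, numpy 2.4.6, scipy 1.17.1, pandas 2.3.3 and matplotlib 3.10.9 were used.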

Additional observations from a re-analysis of the deposited data

Results flagged for a closer look

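Barcodes of more than 100 UMIs but below the cell minimum were used in no comparison above and still carried the 10 genes, at a sum of 457 CPM at D21 and 594 CPM at D0, a ratio of 0.770 (0.741 to 0.800). In them FASN had a ratio of 0.415, FADS2 of 0.431 and SCD of 0.531. ACACA (1.15), ELOVL5 (1.26) and ELOVL6 (1.36) were above 1. What these barcodes hold was not tested.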

How the results depend on the processing

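The count of 3 genes at a ratio of at most 0.5 was the same under the 10 other choices of cells, scaling and weighting tried, and was 4 at a fold of 1.5. The median log2 ratio, -0.50, was -0.41 in cells from the D0 minimum to 25000 UMIs and -0.62 with equal weights of the marker states. Above 1 were ELOVL6 (1.01) in CPM without mitochondrial and ribosomal protein genes, and ELOVL5 (1.02) and ELOVL6 (1.09) in cells from the D0 minimum to 25000 UMIs; the cause was not tested. The other 8 genes stayed below 1 throughout, SCD between 0.381 and 0.451, FADS2 between 0.344 and 0.387, FASN between 0.408 and 0.486 and ACLY between 0.833 and 0.920. Thinning to 5000 UMIs put the median pair correlation at 0.0473 (D21) and 0.0445 (D0), and log, rank and cell choices kept it between 0.104 and 0.144. Shares of cells as deposited had medians of 53.1% (D21) and 72.6% (D0), without the thinning to equal depth. In the further lists the count at 0.5 or less stayed 1 with minima of 5 and 1 CPM.

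With 1 library per condition, differences between cultures, days or captures cannot be told apart from the effect of the medium, and cells of 1 library show no error between cultures. Depth is not what limits the sums, since each gene had at least 3783 UMIs in a library. It limits the per-cell values, where ACSS2 was found in 9.48% of thinned D21 cells.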
